A study of Mus musculus with 6 samples.

Results

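The genes described here encode the ezrin, radixin and moesin (ERM) proteins and other proteins that join the plasma membrane to the actin cortex. They were chosen by name: Ezr, Msn and Rdx for the ERM proteins themselves, Slc9a3r1 for a scaffold that binds them, Stk10 and Slk for kinases that act on them, and Tln1 and Vcl for talin and vinculin, which join integrins to actin. These are 8 of the 20458 gene names in the table, held in 10 of its 25017 entries. The study asked which genes differ in expression in follicular B cells that lack the heavy chain of non-muscle myosin IIa, encoded by Myh9. Follicular B cells, sorted as B220+AA4.1-CD23+CD21lo, came from 3 CD23Cre+Myh9fl/fl mice and 3 CD23Cre+Myh9wt/fl mice of the C57BL/6 strain, and their RNA was amplified and sequenced. In both genotypes Cre was driven by a CD23 (Fcer2a) transgene, so that deletion begins only as B cells mature, and the comparison group was haploinsufficient for Myh9 rather than wild type.

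ERM proteins bind the inner face of the membrane and the tails of adhesion receptors through the front of the molecule, and actin filaments through its end. The closed form opens on binding the lipid PIP2 and on phosphorylation of a threonine near the end of the protein, for which the kinases LOK (Stk10) and SLK are known in lymphocytes and other cells, and in B cells ezrin also holds lipid raft components near the cortex through scaffold proteins. Talin binds integrin tails and actin, and vinculin is recruited to talin that has been stretched by actomyosin, the force that myosin IIa makes.

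The regulatory threonine is the site at which the kinases and the ERM proteins of this gene group meet, and the coding sequence around it is shown for this reason. Each sequence is 57 bases long on the coding strand, 5′ to 3′, from the GENCODE M21 gene models on GRCm38, with the threonine codon in capitals.
Ezr: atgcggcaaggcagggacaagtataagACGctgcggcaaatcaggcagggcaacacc
Msn: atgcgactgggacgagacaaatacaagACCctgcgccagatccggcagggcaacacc
Rdx: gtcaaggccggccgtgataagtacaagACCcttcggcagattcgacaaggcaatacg
All 3 sites lie in the coding part of the last exon. The Ezr site is at chr17:6739336-6739392 on the minus strand in exon 13 of 13, and its threonine is codon 567 of 586. The Msn site is at chrX:96166545-96166601 on the plus strand in exon 13 of 13, and its threonine is codon 558 of 577. The Rdx site is at chr9:52086390-52086446 on the plus strand in exon 14 of 14, and its threonine is codon 564 of 583. In each gene the threonine thus stands 20 codons from the end, counting itself. Between Ezr and Msn 45 of the 57 bases were the same, and 1 of the 19 codons coded for another amino acid. Rdx was further from both, with 37 bases shared with Ezr and 38 with Msn, and 3 codons that coded for another amino acid in each pair. Over the whole coding sequence, identity was 74.7% of aligned bases for Ezr and Msn, 73.0% for Msn and Rdx and 70.9% for Ezr and Rdx. The kinases Stk10 and Slk were 68.8% identical over 2866 aligned bases, which leaves out part of the 3702 coding bases of Slk. No stretch of 50 bases was shared among the transcript models compared for the 8 genes, and the longest run shared by any of the related pairs was 32 bases, between Ezr and Msn. The model of Slk had 4239 bases, while its longest coding transcript has 7278, so part of that transcript was not compared.

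Expression is given as FPKM, fragments per kilobase of transcript scaled to the number of mapped fragments, which allows levels of different genes to be compared per length. The authors' table holds 1 pooled FPKM per genotype, so the values have no spread between mice and the depth of each sample is unknown. The authors' own tests were not used, and no difference was tested here. In sorted cells taken in bulk, fewer cells of a type and less RNA per cell cannot be told apart. A gene was counted as past the fold when log2 of (FPKM + 1) in CD23Cre+Myh9fl/fl over that in CD23Cre+Myh9wt/fl was at least 0.5 in size and the mean of both values was at least 1 FPKM. Gene positions in the table are printed as listed, since 0 of 9 genes checked start where GRCm38 has them, although the submitters' notes name mm10 and GRCm38.

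Myh9 itself (chr15:77591019-77672545 as listed) was at 50.6 FPKM in the CD23Cre+Myh9wt/fl cells and 21.1 FPKM in the CD23Cre+Myh9fl/fl cells, which is 58.3% lower and a log2 ratio of -1.22. A ratio of at least this size was found in 0.304% of the 9866 genes whose values averaged 1 FPKM or more. The value covers the whole transcript, including exons that Cre does not remove.

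None of the 8 genes was past the fold. All 8 were expressed above the minimum of 1 FPKM, and 0 of 8 reached a log2 ratio of 0.5 in size, where 3.45% of all 9866 genes did, 1.27% higher and 2.18% lower in CD23Cre+Myh9fl/fl cells. At a log2 ratio of 0.25 the count was still 0 of 8, beside 17.3% of all genes. Of the 8 genes, 6 were higher and 2 were lower in CD23Cre+Myh9fl/fl cells, with log2 ratios from -0.18 to 0.13 and a median of 0.067. The median of all 9866 genes was 0.0026. With 8 genes and a background this low, a count of 0 does not set the group apart from other genes.

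**Figure D1:**
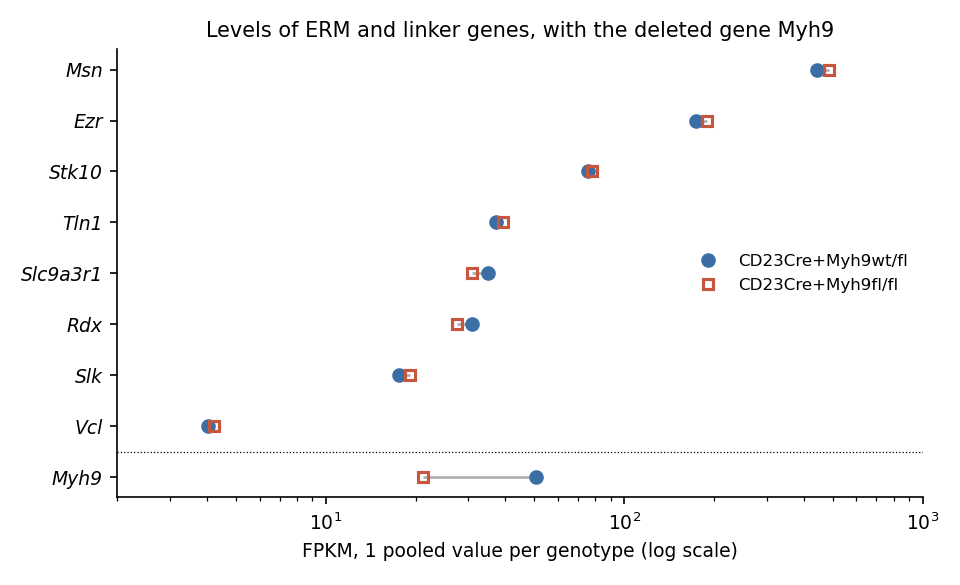
FPKM (log axis, 1 pooled value per genotype, no error available) of the 8 genes and of Myh9 in CD23Cre+Myh9wt/fl cells (filled circles) and CD23Cre+Myh9fl/fl cells (open squares). The symbols of each of the 8 genes nearly overlap, from Msn at 442 and 484 FPKM to Vcl at 4.02 and 4.22 FPKM, while those of Myh9 lie apart at 50.6 and 21.1 FPKM.

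Levels of the 8 genes spanned a wide range that was alike in both genotypes. The highest level was 110 times the lowest in CD23Cre+Myh9wt/fl cells and 115 times in CD23Cre+Myh9fl/fl cells. From highest to lowest the order was Msn, Ezr, Stk10, Tln1, Slc9a3r1, Rdx, Slk and Vcl, and it was the same in both genotypes. Without a spread between mice, it cannot be said which neighbours in this order differ beyond it, and Tln1 and Slc9a3r1 were the closest pair in CD23Cre+Myh9wt/fl cells.

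Among the ERM proteins, moesin and ezrin transcripts made up nearly all of the family. Msn (chrX:93291384-93363892 as listed) encodes moesin and was at 442 FPKM in CD23Cre+Myh9wt/fl cells and 484 FPKM in CD23Cre+Myh9fl/fl cells. This placed it 145th of the 9866 genes by mean level, and its value was 9.70% higher in CD23Cre+Myh9fl/fl cells, a log2 ratio of 0.13. Ezr (chr17:6942480-6987129 as listed) encodes ezrin and was at 174 FPKM and 190 FPKM in the same order, 9.41% higher, also a log2 ratio of 0.13. Ratios at least as large in size as those of Msn and Ezr were found in 41.6% and 42.8% of all genes, so both differences were of a size common in this table.

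Rdx, which encodes radixin, was the low member of the family and lay on the other side of 0. It was at 30.8 FPKM in CD23Cre+Myh9wt/fl cells and 27.6 FPKM in CD23Cre+Myh9fl/fl cells, 10.5% lower, a log2 ratio of -0.16 that 35.2% of all genes matched or passed in size. The table lists Rdx at chr9:51810166-51896843 in 2 entries. This interval spans 86678 bases, where the gene on GRCm38 spans 41589, so it is longer than that gene. The main entry was at 30.7 and 27.5 FPKM and the other at 0.117 and 0.101 FPKM, so both were lower in CD23Cre+Myh9fl/fl cells and the main entry carried nearly all of the level.

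Summed over the 3 ERM genes, the level was 646 FPKM in CD23Cre+Myh9wt/fl cells and 702 FPKM in CD23Cre+Myh9fl/fl cells, 8.65% higher. Msn made up 68.3% of this sum in CD23Cre+Myh9wt/fl cells and 69.0% in CD23Cre+Myh9fl/fl cells. The share of Ezr was 26.9% and 27.1%, and that of Rdx was 4.77% and 3.93%. The level of Msn over that of Ezr was thus nearly the same in both genotypes, at 2.54 and 2.55. Ratios that involve Rdx differed more, since its value lay in the other direction: Msn over Rdx was 14.3 and 17.6, and Ezr over Rdx was 5.63 and 6.89. The summed ERM level was 12.8 times that of Myh9 in CD23Cre+Myh9wt/fl cells and 33.2 times in CD23Cre+Myh9fl/fl cells, a difference that comes mostly from the value of Myh9.

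**Figure D2:**
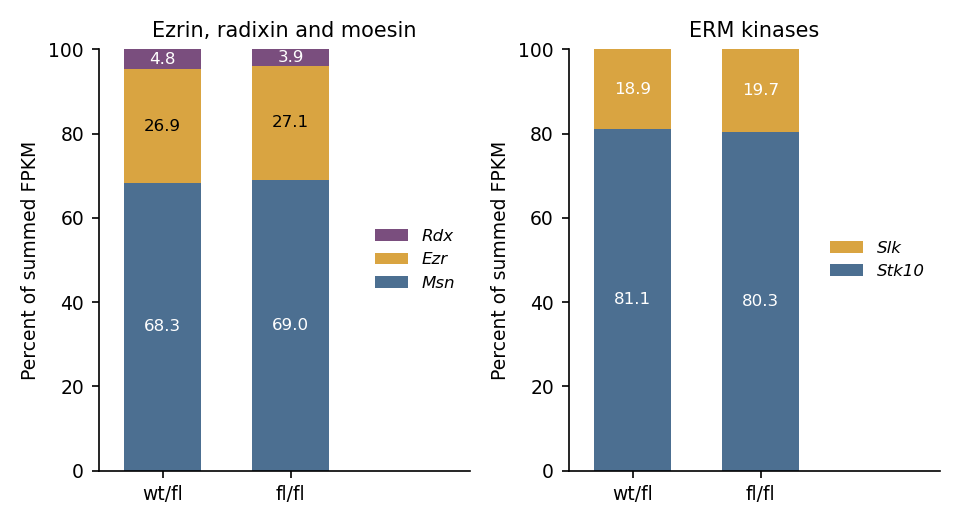
Share of the summed FPKM (percent, stacked bars from 0) that each gene contributes within the ERM family (left) and between the kinases Stk10 and Slk (right), by Myh9 genotype, from 1 pooled value per genotype. Msn holds 68.3% and 69.0% of the ERM sum, and Stk10 holds 81.1% and 80.3% of the kinase sum.

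Slc9a3r1 encodes NHERF1, also known as EBP50, a PDZ scaffold that binds the front of ERM proteins and connects them to membrane proteins. It was at 35.1 FPKM in CD23Cre+Myh9wt/fl cells and 30.8 FPKM in CD23Cre+Myh9fl/fl cells (chr11:115024655-115042492 as listed). At 12.2% lower, a log2 ratio of -0.18, this was the value farthest from 0 among the 8 genes, and 28.8% of all genes had a ratio at least as large in size. Ezr stood at 4.95 times the level of Slc9a3r1 in CD23Cre+Myh9wt/fl cells and at 6.17 times in CD23Cre+Myh9fl/fl cells.

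Of the kinases that phosphorylate the threonine shown above, Stk10 was the more abundant. Stk10 (chr11:32433266-32524595 as listed) was at 75.5 FPKM in CD23Cre+Myh9wt/fl cells and 78.0 FPKM in CD23Cre+Myh9fl/fl cells, a log2 ratio of 0.05 and, at 3.35% higher, the smallest difference of the 8 genes. Slk (chr19:47654509-47719736 as listed) was at 17.6 FPKM and 19.1 FPKM, 8.54% higher, with a log2 ratio of 0.11. Its main entry was at 17.6 and 19.0 FPKM, and another entry was listed at 0 in CD23Cre+Myh9wt/fl cells and at 0.144 FPKM in CD23Cre+Myh9fl/fl cells. Stk10 made up 81.1% of the summed kinase level in CD23Cre+Myh9wt/fl cells and 80.3% in CD23Cre+Myh9fl/fl cells, and its level was 4.28 and 4.08 times that of Slk.

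Talin and vinculin transcripts differed little between the genotypes. Tln1 (chr4:43544385-43575455 as listed) was at 37.1 FPKM in CD23Cre+Myh9wt/fl cells and 39.3 FPKM in CD23Cre+Myh9fl/fl cells, 5.74% higher, a log2 ratio of 0.08. Vcl (chr14:21748655-21852895 as listed) was the lowest of the 8 genes, at 4.02 FPKM and 4.22 FPKM, 4.93% higher, a log2 ratio of 0.06. Tln1 stood at 9.23 and 9.30 times the level of Vcl in the same order. The Vcl level is uncertain, because 2045 of the 5218 stretches of 50 bases in its transcript (39.2%), and 102 of 3152 in its coding sequence (3.24%), are also found on the opposite strand in the transcripts of Ap3m1. The library kit does not mark strand, so fragments from these stretches cannot be told apart, and Ap3m1 was at 16.5 and 17.2 FPKM. For Tln1 the same overlap, with Creb3, took 42 of 8344 stretches (0.503%), and for the remaining 6 genes the share found in other genes was at most 0.800% of the transcript and 1.47% of the coding sequence, both for Slc9a3r1. For Slk this covers a transcript model of 4239 bases, while its longest coding transcript has 7278 bases.

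The spread of log2 ratios over all genes of the table was read at each level. It holds differences between the genotypes as well as noise, so it is not the error of any single gene. In genes averaging 1 to 5 FPKM, the range of Vcl, the 10th and 90th percentiles of the log2 ratio were -0.36 and 0.31. They were -0.24 and 0.23 from 5 to 20 FPKM, where Slk lies, and -0.17 and 0.18 from 20 to 100 FPKM, where Rdx, Slc9a3r1, Stk10 and Tln1 lie. Over 100 FPKM, the range of Ezr and Msn, they were -0.14 and 0.20. Of the 8 genes, 7 lay between these percentiles at their own level, and Slc9a3r1 lay just below the lower one. These percentiles describe the table and are not a test of any gene.

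**Figure D3:**
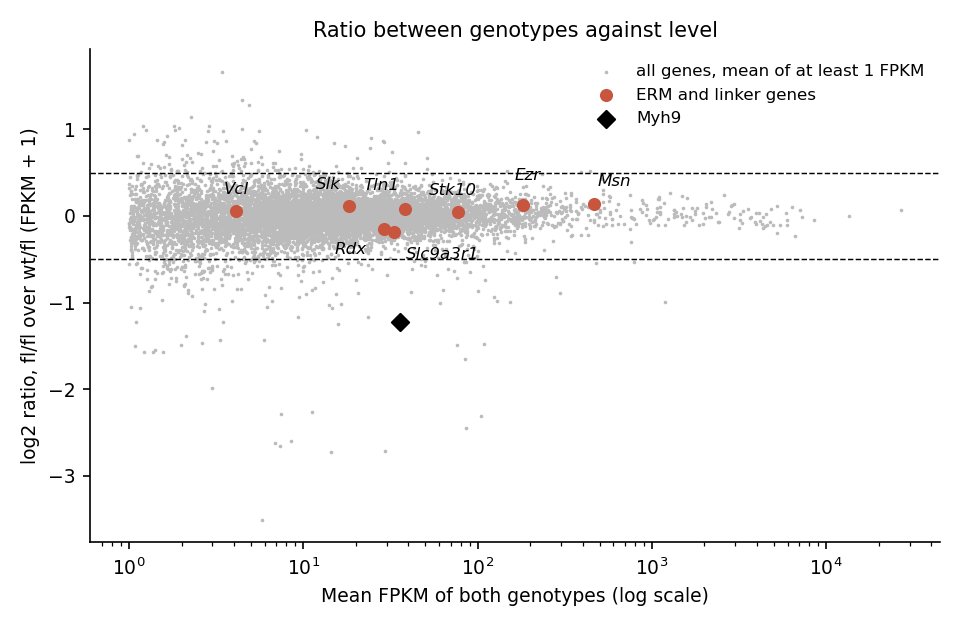
log2 ratio of CD23Cre+Myh9fl/fl over CD23Cre+Myh9wt/fl (FPKM + 1) against the mean FPKM of both genotypes (log axis) for 9866 genes that average 1 FPKM or more (grey), the 8 ERM and linker genes (red) and Myh9 (black diamond); dashed lines mark a log2 ratio of 0.5 in size. The 8 genes lie between -0.18 and 0.13, inside the dashed lines, and Myh9 lies at -1.22, where 0.304% of the genes have a ratio at least as large in size.

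The wider pathways around these genes were followed in 8 lists with 77 genes, the 8 genes included. All 77 were in the table, 61 averaged 1 FPKM or more, and 0 of the 61 were past the fold, beside the 3.45% of all genes given above. Of the 61 genes, 31 were higher and 30 were lower in CD23Cre+Myh9fl/fl cells, with a median log2 ratio of 0.0049. A log2 ratio of 0.25 in size was reached by 8 of them (13.1%, beside 17.3% of all genes): Pdzk1, Skap1 and Vasp were higher, and Itgam, Ptp4a3, Itgb1, Rock2 and Selplg were lower. These 8 are named for their values and not by a rule set for the list.

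**Figure D4:**
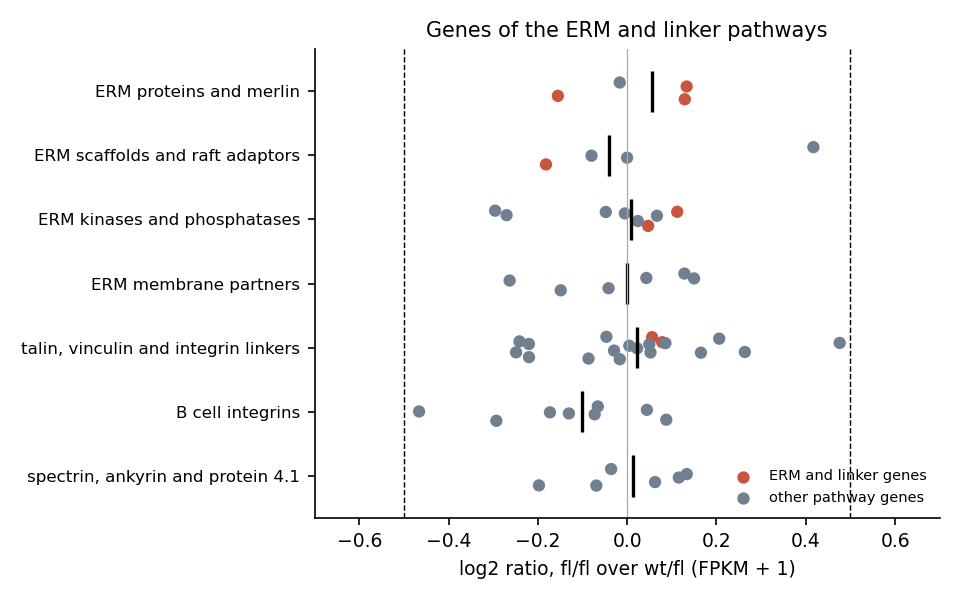
log2 ratio of CD23Cre+Myh9fl/fl over CD23Cre+Myh9wt/fl (FPKM + 1) for 55 of the 61 pathway genes that average 1 FPKM or more, in 7 of the 8 lists; red points are the 8 ERM and linker genes, black bars the list medians and dashed lines a log2 ratio of 0.5 in size. No point passes the dashed lines, and the points nearest to them are Skap1 at 0.48 and Itgam at -0.47.

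In the ERM family list, Nf2, which encodes the related protein merlin, was at 8.18 FPKM in CD23Cre+Myh9wt/fl cells and 8.08 FPKM in CD23Cre+Myh9fl/fl cells. Among scaffolds and raft adaptors, where 1 of 4 genes was higher and the median was -0.04, NHERF1 was the main NHERF transcript, since its paralog Slc9a3r2 was at 0.114 and 0.133 FPKM. Pag1, the raft adaptor that ezrin reaches through NHERF1, was at 39.0 FPKM in both genotypes. Csk, the inhibitory kinase that Pag1 recruits, was at 177 and 168 FPKM. Pdzk1, another PDZ scaffold, was higher at a low level, 1.81 and 2.75 FPKM, a log2 ratio of 0.42.

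Other kinases and phosphatases of ERM proteins stood on both sides of 0, with 4 of 8 genes higher and a median log2 ratio of 0.01, Stk10 and Slk included. Ppp1ca, a catalytic subunit of protein phosphatase 1, was the most abundant at 186 and 185 FPKM. Rock1 and Rock2 encode kinases that act on myosin light chain phosphatase and have also been linked to ERM phosphorylation, and they lay in opposite directions: Rock1 was at 46.8 and 49.1 FPKM, and Rock2 was at 49.2 and 40.6 FPKM, a log2 ratio of -0.27. Ptp4a3, a phosphatase for which ezrin is a reported substrate, was at 65.5 and 53.1 FPKM, a log2 ratio of -0.30.

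Membrane proteins that ERM proteins hold were higher for 3 and lower for 3 of the 6 expressed genes. Icam2 was at 98.7 and 102 FPKM and Icam1 at 22.0 and 21.3 FPKM. Selplg, which encodes the selectin ligand PSGL-1, was at 20.7 and 17.1 FPKM, a log2 ratio of -0.26.

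Among the 19 expressed genes that act with talin and vinculin, 11 were higher and 8 were lower, with a median log2 ratio of 0.02. The small GTPases Rap1b and Rap1a, which bring talin to integrins, were at 139 and 141 FPKM and at 97.3 and 97.6 FPKM. Ptk2b, a focal adhesion kinase, was at 75.4 and 73.0 FPKM. Talin was represented by Tln1, since Tln2 was at 0.018 and 0.070 FPKM. Vasp, an actin regulator at adhesion sites, was at 39.2 and 47.3 FPKM, a log2 ratio of 0.26, while the adaptor gene Skap1 was near the minimum at 0.781 and 1.48 FPKM. Among the 8 lower genes, Zyx was at 30.6 and 25.6 FPKM, a log2 ratio of -0.249. Rasgrp2, also lower, was at 45.9 and 38.7 FPKM, a log2 ratio of -0.241.

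Integrin genes, whose products talin binds, were lower for 6 of 8, with a median log2 ratio of -0.10 where that of the linkers was 0.02. Itga4 was at 69.9 and 66.8 FPKM and Itgb7 at 62.2 and 59.1 FPKM, the chains of the gut homing integrin. The chains of LFA-1, the ICAM-1 receptor, lay in opposite directions, with Itgal at 48.9 and 43.3 FPKM and Itgb2 at 39.7 and 42.3 FPKM. Itgb1 was at 11.6 and 9.31 FPKM, a log2 ratio of -0.29. Itgam, a chain best known from neutrophils and macrophages, was at 2.22 and 1.33 FPKM, a log2 ratio of -0.47. Beside these values, the 8 neutrophil markers summed to 364 and 64.6 FPKM, with 6 of 6 past the fold in the lower direction, and their part in the integrin values was not tested. Spectrin, adducin and protein 4.1 genes, which encode another type of membrane skeleton, had a median log2 ratio of 0.01 over the 6 expressed genes of their list, in which Ank1, Ank2 and Ank3 for ankyrins were under 1 FPKM. The most abundant were Add3 at 129 and 140 FPKM, Sptbn1 at 99.0 and 103 FPKM and Add1 at 60.0 and 52.2 FPKM.

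The B cell label was checked against markers, since ERM and linker genes are expressed in most blood cells. The 10 B cell markers summed to 5967 FPKM in CD23Cre+Myh9wt/fl cells and 6303 FPKM in CD23Cre+Myh9fl/fl cells, led by Cd79b at 1638 and 1739 FPKM, with 0 of 10 past the fold. Fcer2a, which encodes CD23, the marker used in the sort and the promoter behind Cre, was at 439 and 588 FPKM, a log2 ratio of 0.42. Markers of other cells were also present, and several were lower in CD23Cre+Myh9fl/fl cells. The 8 neutrophil markers summed to 364 and 64.6 FPKM, led by S100a9 at 175 and 34.5 FPKM, and all 6 that averaged 1 FPKM or more were past the fold in the lower direction, while Elane and Mpo were at 0.119 and 0.092 FPKM in CD23Cre+Myh9wt/fl cells and listed at 0 in CD23Cre+Myh9fl/fl cells. Erythroid markers summed to 99.0 and 13.7 FPKM, led by Beta-s at 52.0 and 7.08 FPKM, with 3 of 3 past the fold in the lower direction. Macrophage and monocyte markers summed to 89.2 and 59.0 FPKM, led by Lyz2 at 72.6 and 44.9 FPKM, with 1 of 5, Lyz2 itself, past the fold in the lower direction. Lyz2, which neutrophils also express, carried most of the difference in this sum. Of the 8 macrophage and monocyte markers, 7 were lower in CD23Cre+Myh9fl/fl cells at any level, among them Cd68 at 7.41 and 6.10 FPKM, Ly6c2 at 3.56 and 2.68 FPKM, Emr1 at 1.34 and 0.652 FPKM and Cd14 at 0.366 and 0.082 FPKM. Csf1r at 1.42 and 1.39 FPKM and C1qa at 0.839 and 0.806 FPKM were nearly level, and C1qb was higher at 1.61 and 2.39 FPKM.

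Natural killer cell markers summed to 29.7 and 19.9 FPKM, led by Gzma at 16.8 and 12.1 FPKM, with 1 of 3 past the fold in the lower direction and Ncr1 at 1.88 and 1.32 FPKM. Plasma cell markers summed to 118 and 107 FPKM, mostly from Irf4 at 60.8 and 58.9 FPKM and Xbp1 at 48.8 and 45.9 FPKM, neither past the fold. In this list 2 of 4 were past the fold in the lower direction, Igj at 5.40 and 0.617 FPKM and Sdc1 at 2.30 and 1.13 FPKM. T cell markers summed to 25.5 and 23.6 FPKM, led by Lck at 14.5 FPKM in both genotypes, with 0 of 5 past the fold. Of the 8 T cell markers, 6 were lower in CD23Cre+Myh9fl/fl cells at any level, among them Cd3g at 1.96 and 1.26 FPKM and Cd3d at 3.02 and 2.31 FPKM, while Cd3e was at 1.83 and 1.96 FPKM. Platelet markers, which matter for talin and vinculin because platelets hold much of both, summed to 2.55 and 3.84 FPKM, led by Ppbp at 1.43 and 1.38 FPKM. Of the 6 platelet markers, 4 were higher in CD23Cre+Myh9fl/fl cells. Pf4 was at 0.168 and 0.880 FPKM, Gp1ba at 0.618 and 1.07 FPKM, Gp5 at 0.057 and 0.258 FPKM and Itga2b at 0.173 and 0.262 FPKM. Gp9 was at 0.105 FPKM and listed at 0 in CD23Cre+Myh9fl/fl cells. The 4 higher markers all averaged under the minimum of 1 FPKM, and Ppbp, the 1 platelet marker above it, was slightly lower. Endothelial and stromal markers came almost wholly from Pecam1, which B cells also express, at 71.0 and 80.0 FPKM, with Cdh5 at 0.299 and 0.185 FPKM and Col3a1 listed at 0 in both. The part of these other cells in the values of the ERM and linker genes, the integrins, Selplg and the other pathway genes was not tested.

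**Figure D5:**
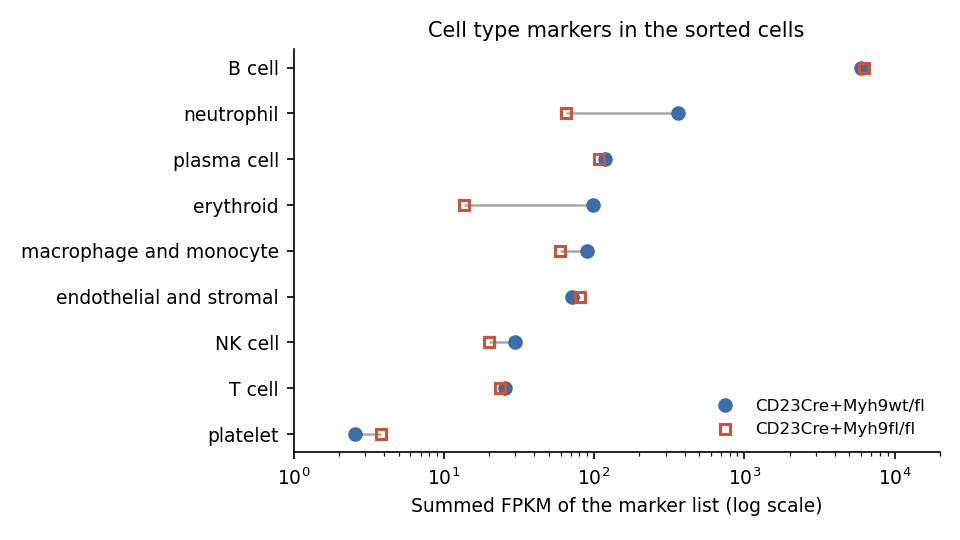
Summed FPKM (log axis, 1 pooled value per genotype) of 9 cell type marker lists in CD23Cre+Myh9wt/fl cells (filled circles) and CD23Cre+Myh9fl/fl cells (open squares). B cell markers stand at 5967 and 6303 FPKM, while the neutrophil and erythroid sums are lower in CD23Cre+Myh9fl/fl cells, at 364 and 64.6 FPKM and at 99.0 and 13.7 FPKM.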

How the data were processed

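RNA of sorted follicular B cells was extracted with TRIzol and RNeasy columns, amplified with the Ovation RNA-Seq System V2 and made into libraries with the TruSeq Nano DNA kit. The submitters' processing notes name Bowtie, TopHat and Cufflinks without versions. The deposited table, in the layout of a Cuffdiff comparison of coding sequences, gives 1 FPKM per genotype, calculated by the authors over 3 samples each. Its other columns hold the authors' log2 fold changes, test statistics, p-values, q-values and significance calls, and were not used. The number of reads per sample is unknown. At the best step found, 28.4% (wt/fl) and 33.8% (fl/fl) of the low values lay within 0.1 of a whole multiple, where even spacing gives 20%, so whole reads were not recovered.

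FPKM was summed over the entries of a gene name, 44 entries whose symbol had become a date were left out, and log2 ratios used a pseudocount of 1 FPKM. With 1 pooled value per genotype no test was run. Genes named were the 8 members, Myh9, the 3 most abundant genes of each pathway list with any gene past the fold, and the leading and defining genes of each marker list; other names were chosen after their values were seen. Values of 1 pathway list and of 1 gene of another list are not reported here. The members and lists were chosen with earlier results of these data known. Alternatives were other pseudocounts, scalings, filters, fold thresholds and the highest entry alone. Coding sequences were aligned globally from GENCODE M21, in place of the planned comparison of proteins, which was not run. Work used Python 3.11.15, pandas 2.3.3, numpy 2.4.6, biopython 1.88 and matplotlib 3.10.9.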

Additional observations from a re-analysis of the deposited data

How the results depend on the processing

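The log2 ratio of each of the 8 ERM and linker genes was recomputed with pseudocounts of 0.1 and 0.5 FPKM, with upper quartile scaling, with quantile normalization and from the highest entry alone. All 40 values kept their sign, the largest shift was 0.051, and they ranged from -0.20 to 0.13. The count of these genes past the fold was 0 in each of these settings and at a log2 ratio of 0.25. With no filter, with a mean of at least 5 FPKM, which leaves out Vcl, and at a log2 ratio of 1 it was also 0. Those last settings could give no other count, because all 8 genes passed the main filter and none reached the main threshold. The count of pathway genes past the fold was 0 in the main setting, 3 with a pseudocount of 0.1 (Pdzk1, Skap1 and Itgam), 2 with a pseudocount of 0.5 (Skap1 and Itgam), 1 with quantile normalization (Skap1) and 8 at a log2 ratio of 0.25. The smaller pseudocounts and the lower threshold let low or small ratios pass by their construction, and for quantile normalization the cause was not tested. Over all genes, the count past the fold was 340 in the main setting, 584 with a pseudocount of 0.1 and 458 with 0.5. It was 336 with quantile normalization and 147 with a mean of at least 5 FPKM. At log2 ratios of 0.25 and 1 it was 1704 and 49. The scalings left the median log2 ratio of all genes at -0.0032 and 0.0063. No paired analysis was possible because the table holds 1 pooled value per genotype, and for the same reason no replicate could be left out. Without depth per sample, the precision of Vcl and of other genes of low level is unknown.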
